A study of Mus musculus with 6 samples.

Results

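The clustered histone genes were followed in cultured mouse muscle stem cells with and without prostaglandin E2 (PGE2), a lipid mediator of injured tissue. The group holds every gene of the deposited expression table whose symbol begins with Hist1h, Hist2h, Hist3h or Hist4h, apart from 1 symbol that contains -ps, and comes to 70 of 43283 genes. By their symbols, 6 belong to linker histone H1, 20 to H2A, 19 to H2B, 12 to H3 and 13 to H4. The GENCODE M21 annotation calls 2 of the H2A members, Hist1h2al and Hist1h2aj, pseudogenes, and 1 of the 2 rows named Hist2h2bb a long noncoding RNA; they stay in the counts and sums. Also by symbol, 56 of the 70 belong to the Hist1 cluster, 11 to Hist2, 2 to Hist3 and 1 to Hist4. The rule itself uses names and no measured value.

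RNA sequencing was done on 6 libraries, 3 of cells given DMSO (Vehicle) and 3 of cells given PGE2, each for 24 h. All cells came from hindlimb muscle of female C57BL/6 mice, aged 8 to 12 weeks by the sample labels and 2 to 4 months by the series' design text. They were sorted as carrying α7-integrin and CD34 and lacking CD45, Sca1, CD31 and CD11b, and both groups were kept in the same medium with 20% fetal bovine serum. RNA came from 5000 to 10000 cells and its cDNA was amplified before library construction, and the labels do not say how that cDNA was primed. Whether the 3 libraries of a group stem from different mice, sorts or dishes is not in the labels, and p-values therefore speak of the spread among libraries, which may be technical. The title of the series concerns PGE2 and muscle stem cell function, and the comparison addresses whether histone transcripts differed after a day of it.

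Core histones H2A, H2B, H3 and H4 form the spool around which DNA is wound, and linker histone H1 binds the DNA between spools. The clustered genes are the replication-dependent ones, switched on together when DNA is copied. Most of their mRNAs end in a short stem-loop bound by SLBP, the stem-loop binding protein, in place of a poly(A) tail. Replacement histones are encoded elsewhere in the genome. Of these, H3.3 and H2A.Z come from genes with introns and are made throughout the cell cycle from mRNAs with a poly(A) tail.

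The stem-loop is shown here for members of each family because it is the sequence that sets these transcripts apart. In each line, capitals mark the stem, the loop and the returning stem, and the lower-case letters are up to 5 bases on either side, read 5′ to 3′ on the gene's own strand.
Hist1h1e: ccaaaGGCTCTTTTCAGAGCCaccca
Hist2h2ac: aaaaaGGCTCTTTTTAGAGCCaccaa
Hist1h2bm: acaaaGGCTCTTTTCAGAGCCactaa
Hist1h2bk: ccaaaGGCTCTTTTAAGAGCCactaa
Hist2h3c1: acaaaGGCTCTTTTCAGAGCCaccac
Hist1h4d: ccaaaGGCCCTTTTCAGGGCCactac
Hist1h4j: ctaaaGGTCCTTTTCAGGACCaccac
These stretches come from the GENCODE M21 transcripts of build mm10. They lie, in that order, at chr13:23621777-23621802 on the minus strand, chr3:96220413-96220438 on the minus strand, chr13:21722501-21722526, chr13:22036295-22036320, chr3:96247322-96247347, chr13:23581945-23581970 and chr13:21735432-21735457, the last 5 on the plus strand. All lie in the 3′ UTR of single-exon gene models.

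A structural search was run for a stem of 6 bases that starts with GG, a loop of 4 bases that starts with TT, and the reverse complement of the stem, within 200 bases past the stop codon. It was found in 44 of the 52 members whose model runs 16 or more bases past the stop codon (84.6%), against 15 of 21018 other protein-coding genes (0.0714%). One of those 15 was H2afx, the replacement H2A that marks DNA breaks. The stem read GGCTCT in 4 H1, 11 H2A, 10 H2B and 8 H3 members, that is in each non-H4 member with a loop. In H4 it read GGCCCT in 9 members and GGTCCT in 2, Hist1h4j and Hist1h4b. The loop began a median of 31 bases past the stop codon (range 21 to 58). The remaining 8 of the 52, in which no such structure was found, included Hist1h1a, Hist1h2bc, Hist2h2be and Hist2h3b. For 18 members the annotation gives fewer than 16 bases past a stop codon, so the search could not be made. These include the annotated pseudogenes Hist1h2al and Hist1h2aj and the Hist2h2bb row annotated as a long noncoding RNA, which have no annotated coding region.

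Start-site sequences from RefSeq (build GRCm38.p6), 250 bases before to 50 bases after the start, matched 61 members. Below are the 100 bases before the start of the members with the highest level in the H4, H1, H2B and H2A families, with capitals on TATAAA and on CCAAT or its reverse complement ATTGG.
Hist1h4d: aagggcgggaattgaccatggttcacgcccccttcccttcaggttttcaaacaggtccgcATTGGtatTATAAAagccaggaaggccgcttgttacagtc
Hist1h1e: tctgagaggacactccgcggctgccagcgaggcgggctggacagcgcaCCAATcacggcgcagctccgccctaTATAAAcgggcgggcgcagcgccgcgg
Hist1h2bl: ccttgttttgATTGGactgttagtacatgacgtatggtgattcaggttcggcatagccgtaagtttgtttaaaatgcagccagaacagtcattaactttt
Hist1h2ak: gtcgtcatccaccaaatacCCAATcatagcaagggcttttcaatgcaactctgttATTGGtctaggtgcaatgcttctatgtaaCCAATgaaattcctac
They lie at chr13:23581468-23581567 on the plus strand and, on the minus strand, at chr13:23622559-23622658, chr13:21716184-21716283 and chr13:21753913-21754012. Searched on both strands over the whole window, the letters CCAAT, those of the CCAAT box, were present in 52 of 61 members (85.25%) and in 37.8% of 26964 other promoters. The families differed: each of the 6 H1, 17 H2A, 16 H2B and 10 H3 windows held CCAAT, against 3 of 12 H4 windows. A match can lie after the start. For the leading H3 gene, Hist2h3c1, not printed above, the 100 bases before the start held neither TATAAA nor CCAAT on either strand. Its first forward CCAAT was 29 bases after the start. The letters TATAAA, those of the TATA box, were in 35 of 61 members (57.4%) and in 14.1% of the others. The octamer ATTTGCAT, a motif known from H2B promoters, was in 6 of 16 H2B and 7 of 17 H2A windows, in none of the H1, H3 or H4 windows, and in 1.71% of other promoters. The motifs do not contain each other, and a match describes the sequence only.

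Markers of muscle stem cells were found at unlike levels. Pax7, which marks them, was at 23.9 to 67.0 TPM, and the 8 markers on that list summed to 449 to 656 TPM. Myf5 (119.8 to 302.9 TPM) and Myod1 (89.5 to 146.2 TPM) made up most of it. Vcam1 was at 48.6 to 83.6 TPM, Des at 35.0 to 107.0 TPM and Cd34 at 12.4 to 26.2 TPM. Itga7, for the α7-integrin sorted for, was at 2.69 to 13.2 TPM and Cdh15 at 0 to 5.15 TPM. TPM gives a gene's part of all transcripts in a library, corrected for length, and keeps no read depth. Genes above 0 numbered 15400 to 19677 per library, and mitochondrial genes held 20.9% to 33.6% of the TPM. Red cell globins and the pericyte gene Pdgfrb were at 0 in all 6 libraries. The summed markers of leukocytes reached 14.97 TPM at most, those of endothelium 9.15 TPM, those of pericytes and smooth muscle 15.4 TPM and those of glia 9.01 TPM. The 6 fibro-adipogenic markers summed to 18.7 to 31.5 TPM with Vehicle and 37.5 to 45.9 TPM with PGE2, without overlap. Most of that sum was Col3a1 (15.3 to 36.5 TPM). Ly6a, which encodes the Sca1 sorted against, was at 13.6 TPM in PGE2 2 and at 0 to 7.92 TPM in the others, Col1a1 at 14.4 TPM in PGE2 3 and at most 0.44 TPM in the others, and Pdgfra, which defines those cells, at 1.45 TPM or less. Whether such cells had a part in any histone value was not tested.

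Together the 70 genes held 290.1, 645.2 and 689.1 TPM in the Vehicle libraries numbered 1 to 3 and 556.1, 699.7 and 461.0 TPM in the PGE2 libraries numbered the same way. Vehicle 1 stood lowest, and the other 5 libraries were interleaved between the groups. The means were 541 ± 219 TPM with Vehicle and 572 ± 120 TPM with PGE2 (SD, n = 3 each), a log2 ratio of means of 0.08. The difference was smaller than the spread within either group, and its sign turned without Vehicle 1 (log2 ratio -0.22) or without PGE2 2 (-0.09). Vehicle 1 also had the most genes above 0 (19677) and the lowest mitochondrial share (20.9%) of the 6 libraries. In bulk RNA, fewer cells in S phase and less histone RNA per cell cannot be told apart.

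No clustered histone gene passed the test between PGE2 and Vehicle. Of the 70 members, 38 reached 1 TPM in at least 3 libraries and were tested among 12781 genes with limma on log2(TPM + 1), with Benjamini-Hochberg adjustment over all 12781 and a threshold of 0.05. None of the 38 was called, and the share called over all tested genes was also 0%. At an unadjusted limma p under 0.05 the count was 0 of 38 members, against 464 of 12781 genes (3.63%), of which 1.57% of genes were higher in PGE2 and 2.06% lower. The fitted change was above 0 for 17 members and below 0 for 21 (55.3%), beside 56.1% below 0 over all genes. The median log2 change was -0.06 for the members and -0.07 for all tested genes. Because the filter keeps a gene through either group, these counts cover the better measured members and not the whole set.

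**Figure D1:**
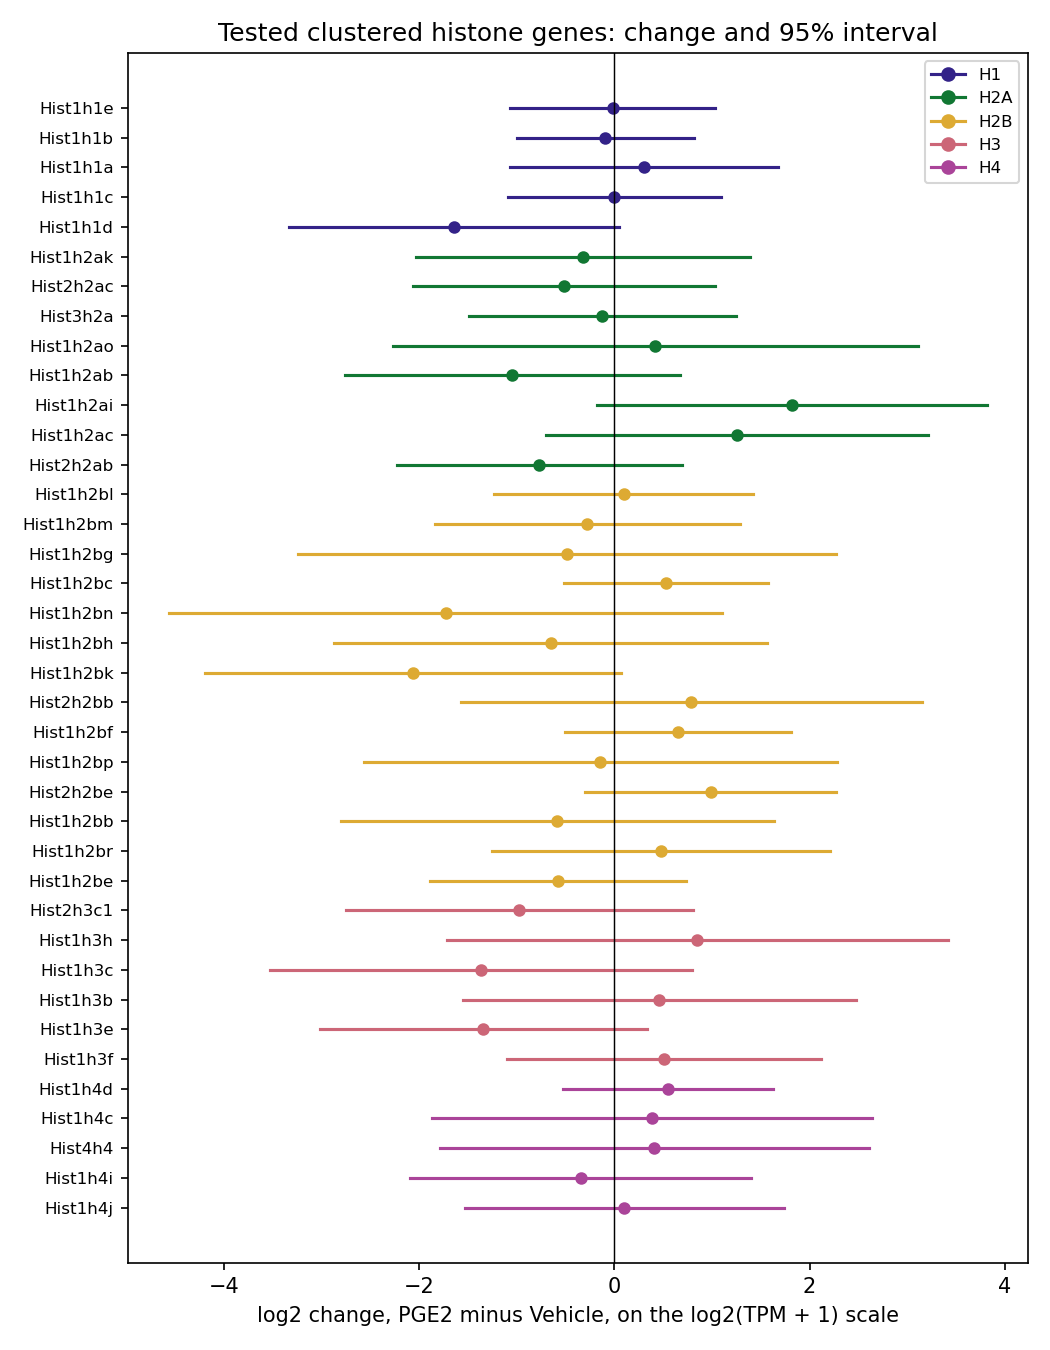
Log2 change of each of the 38 tested clustered histone genes (PGE2 minus Vehicle, log2(TPM + 1) scale, horizontal axis), grouped by family, with points for the limma estimate and lines for its 95% confidence interval. Every interval spans 0, and the estimates run from -2.06 for Hist1h2bk to 1.82 for Hist1h2ai.

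The intervals were wide. The median distance from a member's estimate to the end of its 95% interval was 1.71 on the log2 scale, against 1.21 over all tested genes. Within groups, the median SD of log2(TPM + 1) was 0.92 in Vehicle and 1.29 in PGE2 for members. It was 0.44 and 0.68 for the 11320 other tested genes between the lowest and highest mean TPM of tested members. That range takes in most tested genes (0.43 and 0.66 over all 12781), so the comparison does not match members by level. All 38 intervals included 0.

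Only 2 members had groups that did not overlap, 5.26% of the 38 against 8.01% of all tested genes. Both encode H2B and both were higher in PGE2, a direction in which 3.18% of all genes did not overlap, beside 4.84% in the other direction. Hist1h2bf (chr13:23573736-23574196, minus strand, single exon) was at 2.62, 3.55 and 1.97 TPM with Vehicle and 4.86, 3.73 and 5.85 TPM with PGE2. Of its stretches of 50 bases, 65.8% are repeated in other members. Its lowest PGE2 library exceeded its highest Vehicle library by a narrow margin, and the log2 change of 0.65 did not pass (limma, adjusted p = 1.00). Hist2h2be (chr3:96221119-96223738, plus strand) was at 2.86, 2.54 and 0.61 TPM with Vehicle and 3.28, 5.10 and 5.60 TPM with PGE2. Vehicle 3 was the lowest library, and the log2 change of 0.99 (95% interval -0.30 to 2.28) did not pass (limma, adjusted p = 1.00). No stem-loop was found behind its stop codon, and none of its stretches of 50 bases is repeated in another annotated gene.

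The family sums, in which a division of reads among near-identical copies of a family does not show, overlapped between the groups in each of the 5 families. Over all libraries H4 held 29.4% of the clustered histone TPM, H2B 28.7%, H1 22.1%, H2A 13.7% and H3 6.05%. The H3 share was the lowest of the 5 in each of the 6 libraries. The share of H4 was highest in PGE2 1 and PGE2 2, at 40.9% and 41.6%, and ran from 19.1% to 27.6% in the other 4 libraries.

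Single libraries decided the direction in each family but H4. Without Vehicle 1 the log2 ratio of means, PGE2 over Vehicle, was -0.39 for H1, -0.62 for H2A, -0.54 for H2B, -0.47 for H3 and 0.49 for H4. With it the ratios were -0.10, -0.27, -0.17, -0.33 and 0.72. For H1, H2A and H2B the other 2 Vehicle libraries lay above all 3 PGE2 libraries, whereas for H3 and H4 they did not. Without Vehicle 3 the ratios of H1, H2A and H2B turned to 0.12, 0.21 and 0.065, and without PGE2 3 that of H3 turned to 0.037. For H4 the ratio ran from 0.38 to 1.07 over the 6 libraries left out in turn. No label marks any of these libraries as different, and limma called none of the members with any of them left out.

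**Figure D2:**
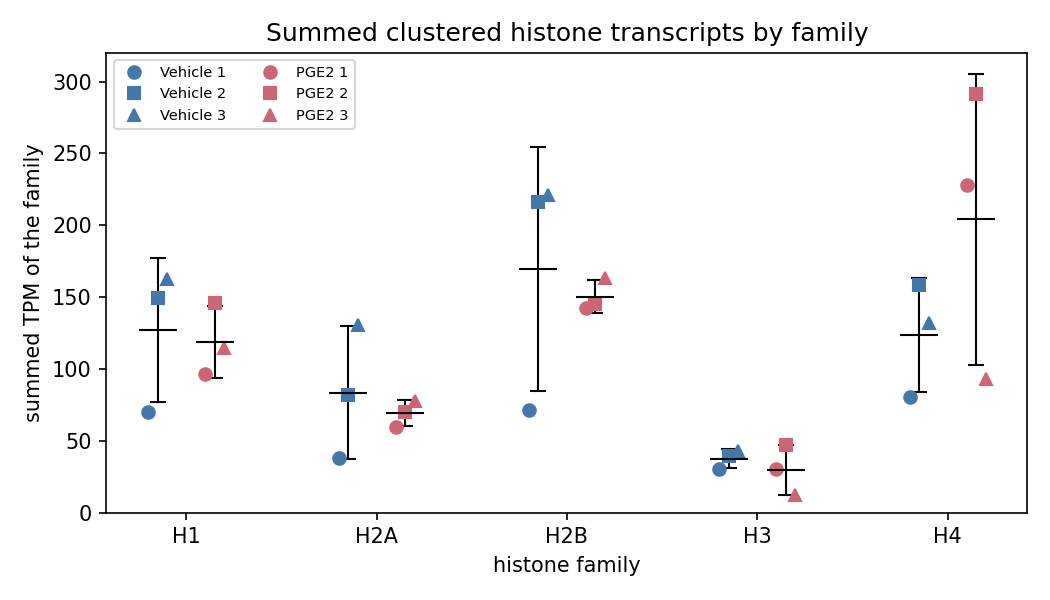
Summed TPM (vertical axis) of the clustered genes of each histone family (horizontal axis), with 1 point per library, a bar at the mean and whiskers of 1 SD (3 libraries per group). Vehicle 1 is the lowest point in H1, H2A, H2B and H4, and PGE2 3 is the lowest in H3.

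Linker histone H1 binds where DNA enters and leaves the nucleosome. The 6 genes summed to 69.95, 149.6 and 162.6 TPM with Vehicle and 96.5, 146.0 and 114.4 TPM with PGE2. Their means were 127 ± 50.2 and 119 ± 25.1 TPM (SD, n = 3 each), and the groups overlapped. Hist1h1e (H1.4; chr13:23620629-23622558, minus strand) was at 27.1, 81.4 and 98.8 TPM with Vehicle and 45.0, 70.5 and 66.7 TPM with PGE2. All 3 PGE2 values lay within the Vehicle range, and the log2 change was -0.02 (95% interval -1.07 to 1.03, limma, adjusted p = 1.00). Hist1h1e made up 51.2% of the H1 sum on average, from 38.8% to 60.8%, and led the H1 genes in each library. Hist1h1b (H1.5) followed with 21.5%, then Hist1h1a (H1.1) with 11.04%, Hist1h1c (H1.2) with 10.7% and Hist1h1d (H1.3) with 5.52%. Hist1h1t, the testis H1, was at 0 throughout.

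Hist1h1b was at 16.03, 33.4 and 31.6 TPM with Vehicle and 21.7, 19.4 and 32.8 TPM with PGE2, with Vehicle 1 lowest and full overlap. None of its 50-base stretches is shared with another annotated gene. Hist1h1d gave the smallest p of any member. It was at 8.41, 10.2 and 6.95 TPM with Vehicle and 7.89, 0 and 2.10 TPM with PGE2. PGE2 1 fell inside the Vehicle range while the other PGE2 libraries were below it, and the log2 change of -1.64 (95% interval -3.33 to 0.05) did not pass (limma, adjusted p = 1.00). An estimate that failed can also be listed as 0, and whether that applies to this gene was not tested. All 11 housekeeping genes looked at were above 0 in the 6 libraries, which is no test of a low gene. Hist1h1a was at 4.83 to 33.3 TPM and Hist1h1c at 7.99 to 22.8 TPM, each with its highest value in PGE2 2 and its lowest in PGE2 3.

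H2A pairs with H2B in the nucleosome, and its clustered genes summed to 38.3, 81.6 and 130.7 TPM with Vehicle and 59.5, 70.2 and 77.8 TPM with PGE2. The means were 83.5 ± 46.2 and 69.2 ± 9.19 TPM (SD, n = 3 each), and the PGE2 libraries were close together and lay inside the Vehicle range. Of the 20 genes 8 were tested, with 3 fitted higher and 5 lower. Hist1h2ak (chr13:21753435-21753827, minus strand) was at 5.39, 32.7 and 69.7 TPM with Vehicle and 20.3, 11.1 and 29.3 TPM with PGE2. Both extremes were Vehicle libraries, and the log2 change was -0.32 (limma, adjusted p = 1.00). The sign of that change turned without Vehicle 3 or without PGE2 2.

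Hist2h2ac, from the Hist2 cluster, was at 6.39, 13.2 and 27.8 TPM with Vehicle and 3.20, 21.8 and 9.84 TPM with PGE2. Hist3h2a, from the Hist3 cluster, was at 14.1, 9.65 and 3.48 TPM with Vehicle and 3.48, 10.8 and 9.53 TPM with PGE2, and its model overlaps the gene Trim17. The 2 groups overlapped for both genes. Hist1h2ai was at 1.18, 0 and 0 TPM with Vehicle and 0, 7.36 and 10.5 TPM with PGE2, the largest fitted increase of any member at 1.82 (95% interval -0.17 to 3.81, limma, adjusted p = 1.00). PGE2 1 was at 0 like Vehicle 2 and Vehicle 3, and 90.1% of this gene's 50-base stretches occur in another gene as well. Hist1h2ao ran from 0 in Vehicle 1 and PGE2 3 to 19.1 TPM in PGE2 2, and Hist1h2ac from 0 in 3 libraries to 10.2 TPM in PGE2 1.

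H2B summed to 71.5, 215.9 and 221.2 TPM with Vehicle and 142.1, 145.4 and 163.3 TPM with PGE2. The Vehicle mean was 169 ± 84.9 TPM and the PGE2 mean 150 ± 11.4 TPM (SD, n = 3 each), with 6 of the 14 tested genes fitted higher and 8 lower. The PGE2 libraries again sat between Vehicle 1 and the other Vehicle libraries. Hist1h2bl (chr13:21715763-21716143, minus strand), the leading H2B gene, was at 13.7, 83.6 and 79.1 TPM with Vehicle and 47.7, 48.1 and 49.7 TPM with PGE2. The PGE2 values were nearly equal and lay inside the Vehicle range, for a log2 change of 0.10 (95% interval -1.23 to 1.42, limma, adjusted p = 1.00). That fitted sign turned without Vehicle 1 and with library weights. The annotated model is the coding region alone, and 82.8% of its 50-base stretches are shared with other genes.

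Hist1h2bc (chr13:23684199-23692908, plus strand), whose models have up to 2 exons, was at 17.8, 10.3 and 7.88 TPM with Vehicle and 14.8, 26.1 and 12.2 TPM with PGE2. Vehicle 1, low in most leading members, was here the highest Vehicle library. Its log2 change was 0.53 (limma, adjusted p = 1.00). Hist1h2bm was at 5.54 to 36.9 TPM and Hist1h2bh at 0 to 14.3 TPM, both with overlapping groups. Hist1h2bg was at 1.67, 31.5 and 15.2 TPM with Vehicle and 23.2, 0 and 20.1 TPM with PGE2. Hist1h2bn was at 3.25, 27.7 and 9.04 TPM with Vehicle and 32.7, 0 and 0 TPM with PGE2. In both genes 1 PGE2 library was at or near the top while another was at 0. Hist1h2bk, the largest fitted decrease, was at 7.67, 7.92 and 12.7 TPM with Vehicle and 0, 0 and 13.5 TPM with PGE2. Its highest value of all was in PGE2 3, and the log2 change of -2.06 (95% interval -4.20 to 0.07) did not pass (limma, adjusted p = 1.00). Hist1h2bj was above 0 only in Vehicle 3, at 30.3 TPM, and in PGE2 1, at 5.87 TPM, so it was not tested.

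H3 carries much of the known histone tail marking, and its clustered genes were the lowest family. They summed to 30.3, 39.7 and 42.8 TPM with Vehicle and 30.3, 46.8 and 12.3 TPM with PGE2. The means were 37.6 ± 6.52 and 29.8 ± 17.2 TPM (SD, n = 3 each), and PGE2 3 stood below the other 5 libraries. Hist2h3c1 (chr3:96246685-96248509, plus strand), the leading H3 gene, was at 19.1, 22.6 and 3.86 TPM with Vehicle and 15.2, 1.47 and 6.57 TPM with PGE2. High and low values were found in both groups, for a log2 change of -0.98 (limma, adjusted p = 1.00). The whole of its sequence is shared in 50-base stretches with other annotated genes. With other members alone the share was 34.7%, and the model of Gm20634 overlaps Hist2h3c1. Hist1h3c was at 0, 4.94 and 11.9 TPM with Vehicle and 3.50, 0 and 0 TPM with PGE2. Hist1h3e was at 1.26, 1.19 and 8.62 TPM with Vehicle and 0, 0 and 1.93 TPM with PGE2. For each of these H3 genes at least 1 PGE2 library lay within the Vehicle range.

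H4 was the family with the largest difference in mean. Its 13 genes summed to 80.2, 158.5 and 131.9 TPM with Vehicle and 227.7, 291.4 and 93.2 TPM with PGE2. PGE2 1 and PGE2 2 were above the Vehicle libraries and PGE2 3 was among them, with means of 124 ± 39.8 and 204.1 ± 101.2 TPM (SD, n = 3 each) and a log2 ratio of 0.72. The smallest p that an exact permutation test of 3 libraries against 3 can give is 0.1, above the threshold of 0.05, and the sums were given no test. Most of it was 1 gene, Hist1h4d (chr13:23581598-23582735, plus strand, single exon), at 67.5, 144.2 and 108.5 TPM with Vehicle and 221.5, 220.2 and 68.0 TPM with PGE2. Hist1h4d was the highest of the 70 genes in every library and held 14.7% to 39.8% of their sum. Its log2 change was 0.55 (95% interval -0.53 to 1.62, limma, adjusted p = 1.00). Only 10.2% of its 50-base stretches occur elsewhere. The other 12 H4 genes together held 12.7, 14.3 and 23.4 TPM with Vehicle and 6.23, 71.2 and 25.2 TPM with PGE2.

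Hist1h4c was at 1.64, 6.80 and 4.53 TPM with Vehicle and 0, 14.2 and 15.8 TPM with PGE2. Its PGE2 libraries lay on both sides of the Vehicle range. Hist4h4 (chr6:136801553-136804415, minus strand), the only gene of the Hist4 cluster, was at 4.74, 0.94 and 5.14 TPM with Vehicle and 1.70, 29.0 and 0.98 TPM with PGE2. PGE2 2 alone made its mean higher in PGE2, and without that library the log2 ratio of means went from 1.55 to -1.43.

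**Figure D3:**
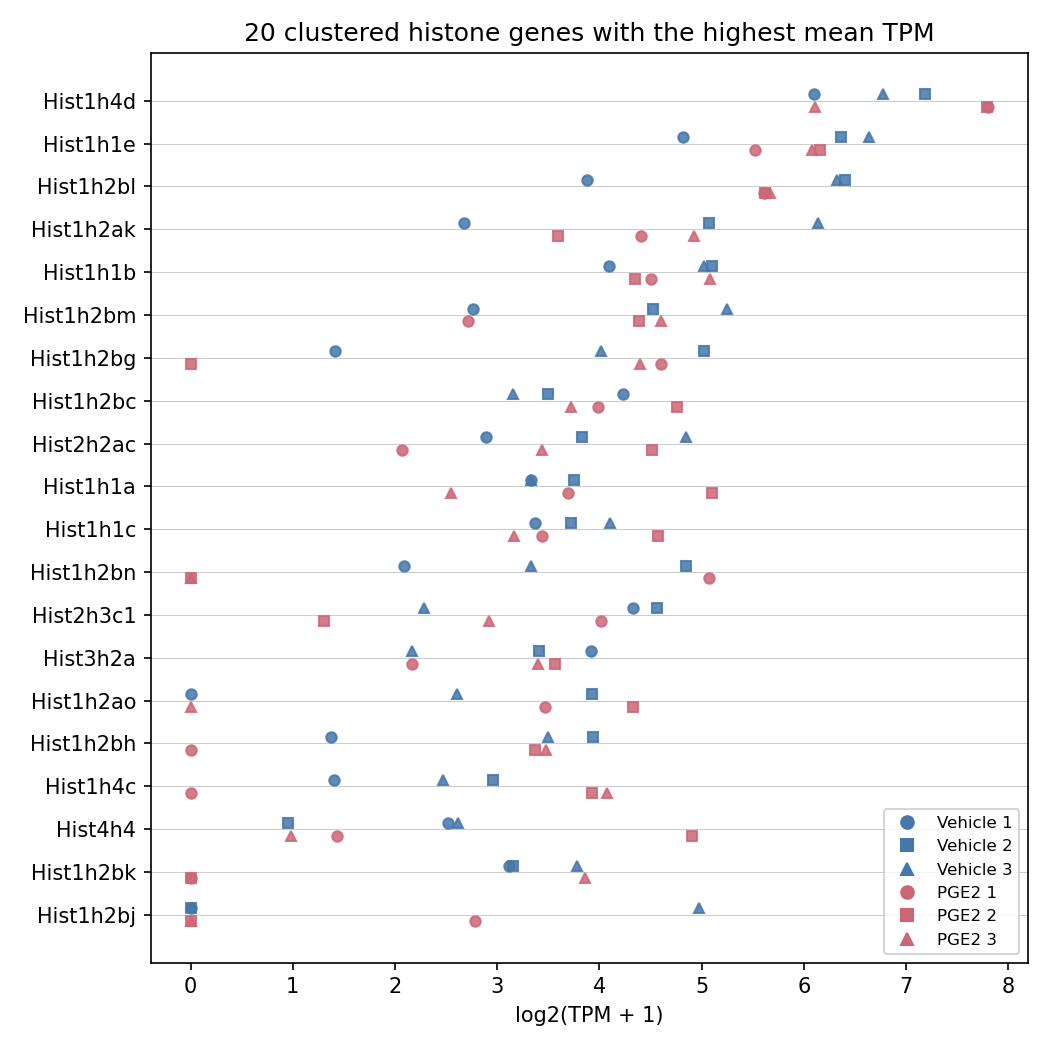
Level in each library, as log2(TPM + 1) on the horizontal axis, of the 20 clustered histone genes with the highest mean TPM, in blue for Vehicle and red for PGE2, with a marker shape for each library number. The colours are mixed in every row, Vehicle 1 (blue circles) is the lowest Vehicle library for Hist1h4d, Hist1h1e, Hist1h2bl and Hist1h2ak, and PGE2 libraries at 0 appear from Hist1h2bg downward.

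Expression was concentrated in few genes. The 4 with the highest mean, Hist1h4d, Hist1h1e, Hist1h2bl and Hist1h2ak, held over 50% of the summed TPM. A mean of 10 TPM or more was reached by 13 genes and a mean of 1 TPM or more by 47. There were 12 genes at 0 in all 6 libraries, among them the testis genes Hist1h1t, Hist1h2aa and Hist1h2ba, and 17 above 0 in all. Of the 38 tested members 22 were at 0 in at least 1 library. Members above 0 numbered 40, 39 and 43 in Vehicle and 34, 34 and 36 in PGE2. These counts did not overlap between the groups, while the numbers of all genes above 0 did, at 16446 to 19677 in Vehicle and 15400 to 17710 in PGE2. Whether library depth had a part in this was not tested, since TPM does not hold it. No gene was at 0 in all libraries of 1 group and above 0 in all of the other.

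Near-identical copies limit what can be said of single genes. The median member shared 54.5% of its 50-base stretches with other annotated genes, from a median of 1.13% for H1 to 73.2% for H2A. In 5 members the whole transcript was shared and in 4 no stretch was. With other members alone, the shares of those 5 ran from 34.7% for Hist2h3c1 to 100% for Hist2h2aa2. The 16 tested members with over 50% shared had a median within-group SD of 1.23 in Vehicle and 1.49 in PGE2 on the log2 scale. Those with 50% or less, 22 in number, had 0.80 and 1.27, and the 4 with 5% or less had 0.41 and 0.83. The spread was thus smaller where sequence was less shared, in these libraries and without a test, and mean levels also differed between these sets, with medians of 5.28, 7.13 and 9.68 TPM. In all, 27 members overlap another annotated gene at the same place, which can add to the shared stretches, and whether strand was used in counting is not given in the sources.

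Most of the genes lie in compact blocks. On chromosome 13, 24 members fall within chr13:21715763-22043676 and 31 within chr13:23531050-23934851. The annotated pseudogene Hist1h2al, counted with Hist1 by its symbol, lies apart from both at chr13:51202727-51203065. The first block held 71.6, 234.1 and 298.6 TPM with Vehicle and 160.1, 176.8 and 170.3 TPM with PGE2. The second, which contains Hist1h4d and Hist1h1e, held 164.2, 356.4 and 318.8 TPM with Vehicle and 368.3, 422.8 and 231.2 TPM with PGE2. Both overlapped between the groups, and Vehicle 1 was lowest in each. The 11 genes of the Hist2 cluster, at chr3:96219865-96279001, held 44.1 TPM on average, 47.6 ± 14.2 TPM with Vehicle and 40.7 ± 18.9 TPM with PGE2 (SD, n = 3 each).

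**Figure D4:**
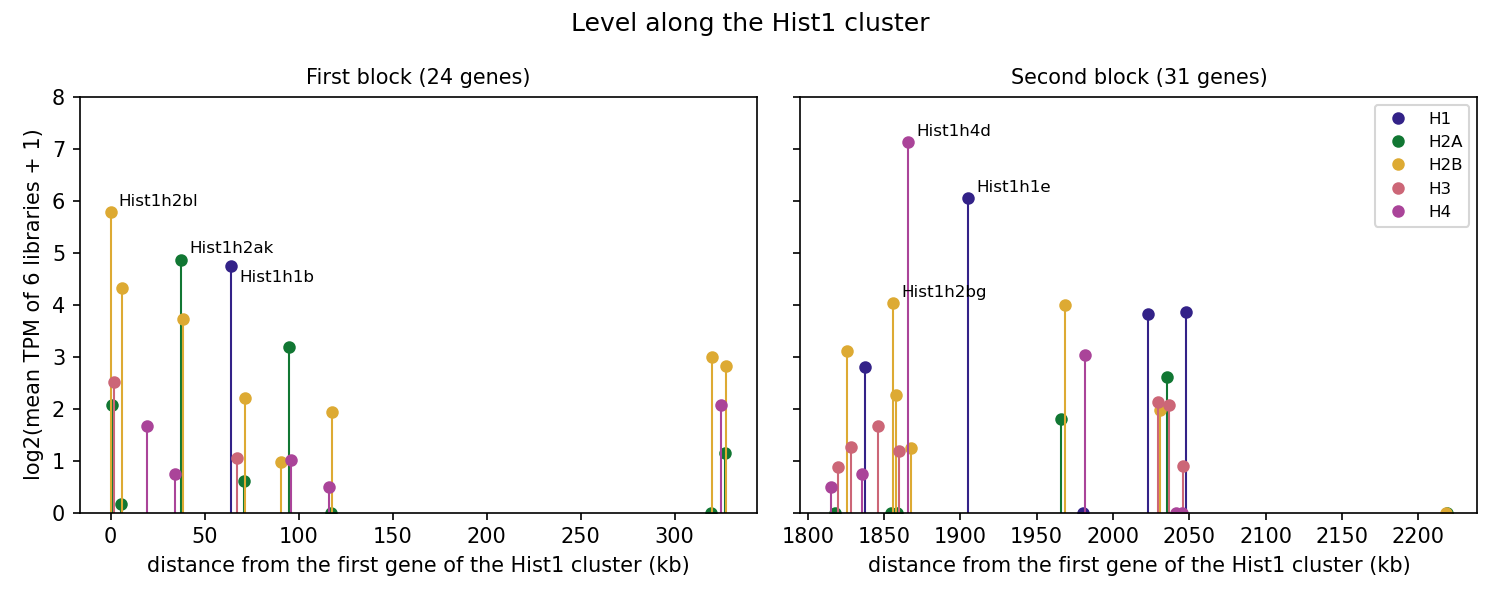
Mean level over the 6 libraries, as log2(TPM + 1) on the vertical axis, of each gene in the 2 large blocks of the Hist1 cluster against its distance in kb from the cluster's first gene, coloured by histone family. Genes with high and low levels alternate within both blocks, and the highest, Hist1h4d, stands in the second block among neighbours at lower levels.

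Many H2A and H2B genes start back to back. In 13 such pairs the starts of the GENCODE gene models are at most 1 kb apart on opposite strands, 1 of them with the annotated pseudogene Hist1h2aj. H2B was the higher gene in 9 pairs and H2A in 3, and in the pair Hist1h2aa and Hist1h2ba both were at 0. The median was 6.03 TPM for the H2B genes and 0.518 TPM for the H2A genes of these pairs. In the pair with the highest H2B level, Hist1h2bl was at 53.6 TPM and Hist1h2ai, whose GENCODE model starts 279 bases away, at 3.17 TPM. Both of these models hold the coding region alone, so that distance is not one between RefSeq start sites. In the opposite direction Hist1h2ak was at 28.1 TPM and its partner Hist1h2bn at 12.1 TPM. The start-site windows of such a pair overlap, so their motif counts share sequence.

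Levels were also set against how far the annotated model runs past the stem-loop. In 22 members it ends within 100 bases of the loop, and these had a median of 2.77 TPM and a highest value of 18.9 TPM. In another 22 it runs further, with a median of 2.97 TPM, a highest value of 138.3 TPM and a sum of 296.3 TPM against 82.8 TPM for the former. Most of the 296.3 TPM came from Hist1h4d (138.3 TPM, 770 annotated bases past the loop) and Hist1h1e (64.9 TPM, 1153 bases). The 18 members with fewer than 16 bases past a stop codon, among them the annotated pseudogenes and the noncoding RNA, had a median of 1.15 TPM. Their highest value was 53.6 TPM and their sum 138.4 TPM, above the sum of the models that end near the loop. The 8 with 16 or more bases and no loop found had a median of 2.95 TPM and a sum of 39.3 TPM. The table does not show which transcript end gave the reads.

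Replacement H3 and H2A transcripts were listed far above the clustered ones, and replacement H1 below on average (66.2 against 123.2 TPM). How cDNA was primed is not stated, and its part in this order was not tested. H3f3a and H3f3b, which both encode H3.3, summed to 1781, 1532 and 1270 TPM with Vehicle and 1046, 1199 and 1614 TPM with PGE2. The clustered H3 genes were 0.756% to 3.75% of all H3 transcripts so counted, and the clustered H2A genes 1.82% to 7.47% of H2A. For H1 the clustered share was 44.4% to 78.6%, next to H1f0, the linker histone of resting and differentiated cells. Of 11 replacement genes 10 were tested and none passed, with 3 fitted higher, 7 lower and a median log2 change of -0.15. H2afz, which encodes H2A.Z, was at 1101 to 1959 TPM.

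**Figure D5:**
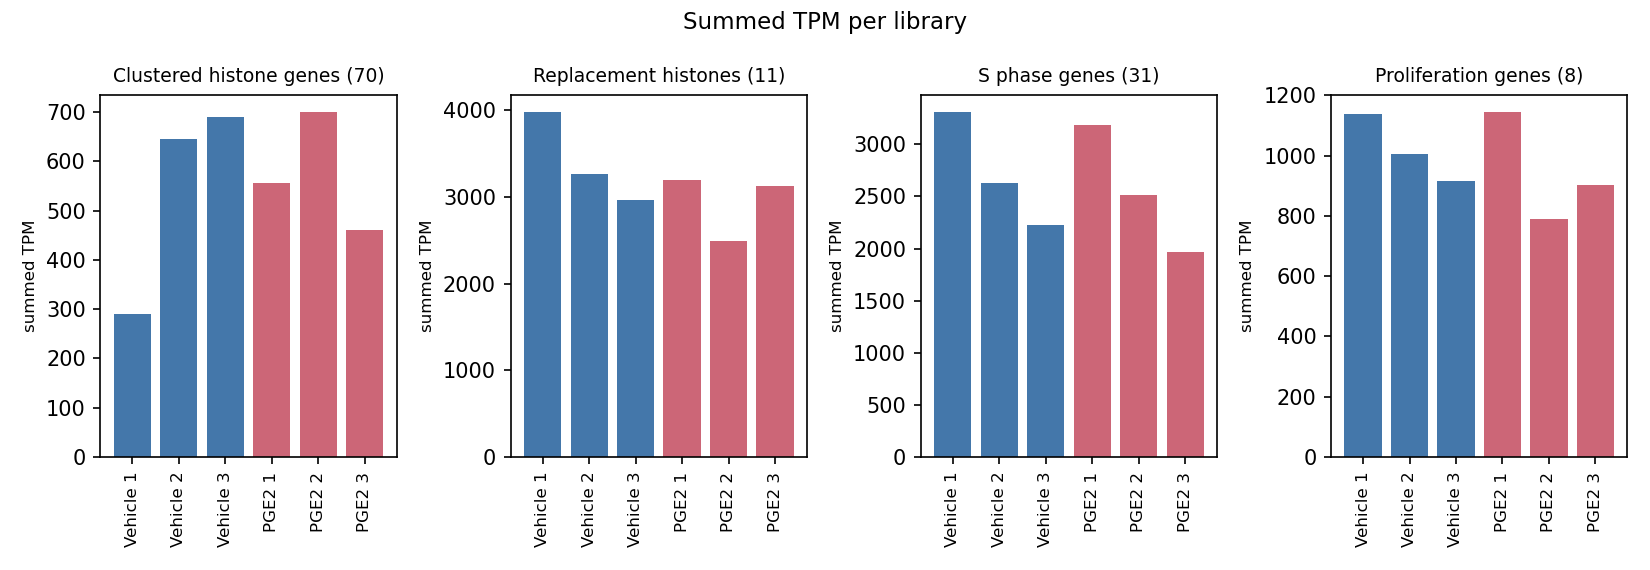
Summed TPM in each library (bars, blue for Vehicle and red for PGE2) of the 70 clustered histone genes and of the lists of 11 replacement histones, 31 S phase genes and 8 proliferation genes, each on its own axis from 0. Vehicle 1 has the lowest bar for the clustered genes (290.1 TPM) and the highest for the replacement histones (3977 TPM) and the S phase genes (3307 TPM). For the S phase genes, the lead of Vehicle 1 over PGE2 1 (3186 TPM) rests on 1 gene, Mcm3.

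The machinery that makes and trims histone mRNA was detected in both groups. Slbp, which encodes the stem-loop binding protein, was at 283.2, 200.9 and 174.6 TPM with Vehicle and 161.3, 204.2 and 200.5 TPM with PGE2, with a log2 change of -0.20 (limma, adjusted p = 1.00). Vehicle 1, lowest in the clustered histones, was highest in Slbp. Npat, the coactivator of histone gene transcription, was at 17.0 to 22.3 TPM. Lsm11, a subunit of the U7 particle that directs 3′ end cleavage, was at 0.26 to 2.26 TPM, and its partner Lsm10 was too low to test. Of 17 genes on this list 15 were tested, 7 fitted higher and 8 lower, and none passed. The groups did not overlap for Eri1, an exonuclease of the histone mRNA end (33.1, 34.1 and 44.5 TPM with Vehicle, 33.1, 23.1 and 33.1 TPM with PGE2; the nearest libraries were at 33.13 and 33.11 TPM), or for Cpsf3, the cleavage enzyme (18.3, 21.3 and 18.8 TPM with Vehicle, 17.8, 13.3 and 11.03 TPM with PGE2). Over all genes 4.84% were lower without overlap. Of 19 histone chaperone genes 9 were fitted higher and 10 lower, with none passing, and Nap1l1, an H2A and H2B chaperone, was the only one whose groups did not overlap (312 to 361 TPM with Vehicle and 268 to 311 TPM with PGE2).

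Genes of DNA synthesis, with which clustered histones are normally co-expressed, gave another order of the libraries. The 31 S phase genes summed to 3307, 2627 and 2230 TPM with Vehicle and 3186, 2510 and 1967 TPM with PGE2. Vehicle 1 was first of 6 here and last of 6 in the clustered histones. Its lead over PGE2 1 in the S phase sum rests on 1 gene, Mcm3. All 31 were tested, with 6 fitted higher, 25 lower, a median log2 change of -0.16 and none passing. Over all tested genes 56.1% were fitted lower, with a median of -0.07. Co-expressed genes do not give independent signs, so these counts are a description only. Mcm3, part of the replicative helicase, had the smallest p of them, at 695.7, 370.2 and 241.8 TPM with Vehicle and 224.1, 424.9 and 196.1 TPM with PGE2 (log2 change -0.58, limma, adjusted p = 1.00). Of 8 proliferation genes 7 were fitted lower and none passed. Cdk1, the mitotic kinase, was at 65.1, 64.6 and 62.3 TPM with Vehicle and 55.5, 53.3 and 35.8 TPM with PGE2 without overlap (log2 change -0.43, limma, adjusted p = 1.00). In the direction of Cdk1, 4.84% of all tested genes did not overlap. Mki67, the proliferation marker Ki-67, was at 89.3 to 271 TPM with full overlap.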

How the data were processed

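The authors deposited 1 table with a column of TPM per library, and no header names the unit, which was inferred from columns that sum to 992357 to 995645. STAR, RSEM and build mm10 are named per the submitters' processing notes; no version, setting or annotation release is given there. Read depth is unknown, so no counting interval is given. Groups follow the labels, 3 libraries each, and no 2 libraries were identical. The members and all gene lists were chosen with earlier results of these data known.

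A gene was tested if it reached 1 TPM in 3 or more libraries (12781 genes). Groups were compared on log2(TPM + 1) in R 4.3.3 by limma 3.58.1 (trended variance prior, two-sided, Benjamini-Hochberg over all tested genes, threshold 0.05, 95% intervals), after the code was tested on simulated data. A log2 change on this scale understates the change of low genes. Sums, sequence searches and figures were made in Python 3.11.15. Of the members, 68 matched GENCODE M21 (mm10) by gene identifier and 2 by symbol; 2 deposited rows share the symbol Hist2h2bb, both are in the sums, and the tested one is protein-coding. Shared sequence was counted in stretches of 50 bases on both strands against all annotated transcripts.

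Named members are the 20 with the highest mean, those whose groups did not overlap, and the 5 smallest limma p in each direction; related genes are up to 4 per list by p plus Slbp, Npat, Lsm10, Lsm11, Mki67 and Pax7. Genes named for sequence, position, testis expression or as replacement histones or markers were chosen after their values were seen. Alternatives covered the pseudocount, filter, scaling, variance prior, library weights, replicate number and each library left out.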

Additional observations from a re-analysis of the deposited data

How the results depend on the processing

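No clustered histone gene was called under any of the 15 alternatives, and the median log2 change of the tested members ran from -0.38 (without Vehicle 1) to 0.22 (without PGE2 1). Over all genes the count of calls, 0, became 1 with a robust prior, and ran from 0 to 2 when 1 library was left out. The summed level of the Hist4 cluster had a log2 ratio of 1.55, which ran from -1.43 to 2.09 when 1 library was left out. The replicate numbers did not pair the libraries (correlations of same-numbered libraries -0.06, -0.04 and 0.07), and a replicate block gave 0 calls over all genes, 0 among the members and a median of -0.06.

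Signs turned for 7 of 51 named genes with all libraries kept. Hist1h4c went to -0.43 with a pseudocount of 0.1. Median-ratio scaling gave 0.046 for Hist1h1e and 0.060 for Hist1h1c, and quantile normalization gave 0.0006 for Hist1h1e, 0.033 for Hist1h1c, 0.039 for Lsm11 and 0.0012 for Mki67. Library weights gave -0.22 for Hist1h2bl, 0.0007 for Hist1h1c and -0.66 for Hist1h2ao. With 1 library left out, signs turned for 21, over these ranges of the log2 change: Hist1h1a -0.35 to 0.92, Hist1h1b -0.42 to 0.088, Hist1h1c -0.42 to 0.28, Hist1h1e -0.58 to 0.33, Hist1h2ak -1.30 to 0.44, Hist1h2ao -0.67 to 1.72, Hist1h2bg -1.52 to 1.01, Hist1h2bh -1.43 to 0.49, Hist1h2bl -0.73 to 0.53, Hist1h2bm -0.98 to 0.32, Hist1h4c -0.31 to 1.72, Hist2h2ac -1.10 to 0.12, Hist3h2a -0.62 to 0.32, Hist4h4 -0.82 to 1.14, H2afv -0.034 to 1.06, H3f3a -0.53 to 0.0090, Slbp -0.35 to 0.0020, Lsm11 -0.43 to 0.11, Birc5 -0.74 to 0.046, Mki67 -0.57 to 0.22 and Pax7 -0.72 to 0.0074. The cause was not tested. Hist1h4d had a positive log2 change in each alternative without passing, at 0.55 as reported, 0.16 with library weights, and 0.25 (without Vehicle 1) to 1.11 (without PGE2 3) with 1 library left out. Depth is not held by TPM, so what it limits cannot be stated, and 3 libraries per group limit the precision.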
